A study of Mus musculus with 30 samples.

Results

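The SR splicing factors described here are 10 genes, Srsf1, Srsf2, Srsf3, Srsf4, Srsf5, Srsf6, Srsf7, Srsf9, Srsf10 and Srsf11, out of 48709 genes in each count table. They were chosen by gene symbol, and all 10 matched 1 row each. RNA-seq had been run on brain, kidney, liver, spleen and quadriceps femoris muscle of adult C57BL/6 mice, from 3 wild-type animals and 3 animals that carry 1 working copy of Ctcf (Ctcf+/-). CTCF binds DNA through its zinc fingers and anchors chromosome loops. Each tissue and genotype has 3 libraries, 30 in all, and the 5 tissues of a genotype come from the same 3 mice. The labels name no treatment and no Cre driver, and sex was not given in the sources used here. Levels are CPM, the counts of a gene per 1000000 counts of its library, with library totals adjusted by the trimmed mean of M values (TMM). The adjustment was made within a tissue and then between tissues, from the TMM factors of the 30 libraries. A level can therefore differ from the plain count per 1000000. Genes are placed on GRCm38 as in the count tables.

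SR proteins carry an RNA-binding domain and a tail rich in arginine and serine, the RS domain. They bind exonic sequences in precursor mRNA and help recruit the splicing machinery to nearby splice sites. Kinases of the SRPK and CLK families phosphorylate the RS domain, which governs import into the nucleus and release from nuclear speckles. Most SR genes also make transcripts with a retained intron or a poison exon, and the latter are removed by nonsense-mediated decay. CTCF itself has been studied as a DNA-bound factor that affects the inclusion of nearby exons.

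Sequences upstream of 4 members are shown because the study lowers the dose of a DNA-binding factor and because all members shared a tissue pattern. They are the 250 bases before the RefSeq start (GRCm38.p6), written 5′ to 3′ on the strand of the gene. Capitals mark matches to any of the motifs listed after them. Srsf5 had the largest share of the family, Srsf7 the largest share difference of brain from kidney, and Srsf2 and Srsf3 held a TATA box. The windows lie at chr11:116853095-116853344 (minus strand) for Srsf2, chr17:29032410-29032659 (plus strand) for Srsf3, chr12:80945249-80945498 (plus strand) for Srsf5 and chr17:80207306-80207555 (minus strand) for Srsf7.
Srsf2: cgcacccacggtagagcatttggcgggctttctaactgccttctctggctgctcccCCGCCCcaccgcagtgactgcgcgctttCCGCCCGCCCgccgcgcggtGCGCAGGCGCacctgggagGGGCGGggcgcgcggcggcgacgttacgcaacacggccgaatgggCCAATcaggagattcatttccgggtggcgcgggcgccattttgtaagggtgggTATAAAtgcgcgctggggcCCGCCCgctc
Srsf3: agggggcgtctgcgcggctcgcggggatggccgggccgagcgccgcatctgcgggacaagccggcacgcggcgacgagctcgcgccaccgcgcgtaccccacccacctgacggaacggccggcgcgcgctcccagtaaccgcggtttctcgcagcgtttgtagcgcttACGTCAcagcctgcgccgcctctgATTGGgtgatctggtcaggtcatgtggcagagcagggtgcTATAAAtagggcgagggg
Srsf5: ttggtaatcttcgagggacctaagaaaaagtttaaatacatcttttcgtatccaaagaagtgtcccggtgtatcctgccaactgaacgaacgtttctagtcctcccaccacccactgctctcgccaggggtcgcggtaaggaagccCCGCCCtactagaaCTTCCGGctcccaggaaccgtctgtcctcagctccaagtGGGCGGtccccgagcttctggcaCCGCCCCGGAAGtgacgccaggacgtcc
Srsf7: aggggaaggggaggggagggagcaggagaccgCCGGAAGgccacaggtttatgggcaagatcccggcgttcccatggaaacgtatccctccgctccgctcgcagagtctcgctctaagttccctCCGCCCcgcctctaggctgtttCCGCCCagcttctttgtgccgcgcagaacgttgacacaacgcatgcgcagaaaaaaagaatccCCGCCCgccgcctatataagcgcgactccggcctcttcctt

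RefSeq gave 13 promoter windows for the 10 members, each of 300 bases (250 before and 50 after the start), and matches were sought on both strands. A member is named if any of its windows held a match, while the shares of all promoters are per window. Srsf4 and Srsf11 had more than 1 window. Windows 1 and 2 of Srsf4, from 131873387 and 131873389, nearly coincide. The GC box GGGCGG was found for 9 of 10 members, in 12 of 13 windows, against 35.7% of all 32841 promoters. Srsf3 was the member without one. The ETS motif CCGGAAG was found for Srsf4, Srsf5, Srsf7 and Srsf11 (8.86% of all promoters). The NRF1 motif was found for Srsf2, Srsf4, Srsf9 and Srsf11 (4.6%). CCAAT was found for Srsf1, Srsf2, Srsf3 and Srsf10 (37.4%), and TATAAA for Srsf2 and Srsf3 (13.6%). The shorter form of the cAMP response element, TGACGT, was found for Srsf3, Srsf6 and Srsf11 (7.51%). The E2F motif TTTNGCGC was found for Srsf10 (1.38%). Matches of the GC box and ETS motifs overlap in Srsf5. The full cAMP element TGACGTCA (1.79%), which contains the shorter form, the E-box CACGTG (7.15%), the YY1 motif (0.85%) and the core of the CTCF motif (0.917%) had no match in the 13 windows. The members' windows had a GC content of 56.0% to 78.3%, against a median of 52.7% over all promoters.

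Total counts per library ran from 49819907 to 131645999, and the smallest count of any member in any library was 450. Ctcf, the targeted gene, was lower in every Ctcf+/- library than in every wild-type library of the same tissue, at 61.4% to 67.2% of the wild-type mean. By edgeR it passed the test in brain (adjusted p = 0.0259), with adjusted p of 0.107 for kidney, 0.543 for liver, 0.250 for muscle and 0.914 for spleen. Defining markers of each labelled tissue were present: summed neuron markers in brain were 4205 to 5101 CPM in wild type, B cell markers in spleen 2913 to 3755 CPM, proximal tubule markers in kidney 18616 to 19193 CPM, hepatocyte markers in liver 234705 to 324572 CPM, and skeletal muscle markers in muscle 257536 to 269096 CPM. Summed markers of a cell type did not overlap between genotypes in 17 of 75 sums of a marker list in a tissue. Of single genes, 6.64% (spleen) to 12.2% (muscle) by tissue did not overlap. Some of the 17 follow. Hepatocyte markers in spleen summed to 24.2 to 30.9 CPM in wild type and 0.0630 to 0.260 CPM in Ctcf+/-. Adipocyte markers in muscle summed to 294.7 to 543.4 CPM in wild type and 598.6 to 1090 CPM in Ctcf+/-. Proximal tubule markers summed to 0.535 to 0.826 CPM in wild-type spleen and 7.83 to 16.0 CPM in Ctcf+/- spleen, and to 15.3 to 108.5 CPM in wild-type muscle and 0.0635 to 9.68 CPM in Ctcf+/- muscle. Distal nephron markers in spleen summed to 0.673 to 1.45 CPM in wild type and 3.39 to 5.58 CPM in Ctcf+/-. Endothelial markers in liver summed to 159.9 to 186.4 CPM in wild type and 112.3 to 144.9 CPM in Ctcf+/-. Their part in the results on SR genes was not tested.

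The counted exons of several members hold much more than their coding transcripts. In Srsf11, 60.6% of the 8446 counted bases lay outside coding transcripts of GENCODE M21, in Srsf5 58.5% of 3988, and in Srsf3 49.8% of 5109. The share was 36.6% in Srsf4, 32.3% in Srsf2, 24.9% in Srsf9, 23.2% in Srsf6, 16.6% in Srsf10, 2.7% in Srsf1 and 0.0% in Srsf7. In Srsf11 all 5121 such bases were in transcripts annotated as retained introns. A gene's count therefore adds coding transcripts to retained-intron and decay-prone ones. Overlap with other genes touched Srsf4, where 43.0% of counted bases (1532) also lay in the antisense gene Gm12992, Srsf2 (25.3%, in Mettl23 and Mfsd11) and Srsf1 (1.7%, in Gm11508). The counting used no strand, so fragments in these shared bases could not be assigned by strand. The levels of Srsf4 and Srsf2 are uncertain to that extent, and the direction of any error was not tested.

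All 10 SR genes were highest in spleen in wild type, as 28.4% of the 22933 genes tested between tissues were. The spleen mean was 1.58 to 2.85 times the next highest tissue mean. For all 10 genes each of the 3 spleen libraries was above all 12 libraries of the other tissues, against 20.4% of all genes. The summed level of the 10 genes was 2199 ± 156.1 CPM in wild-type spleen (SD, n = 3), against 646.7 ± 59.7 in brain, 936.0 ± 50.8 in kidney, 736.5 ± 42.9 in muscle and 808.9 ± 85.3 in liver. In Ctcf+/- mice the 10 genes were again highest in spleen, by 1.37 to 2.75 times (28.3% of all genes were highest there), and for 9 of 10 all spleen libraries were above all others (19.7% of all genes). In bulk tissue a larger number of cells with a high level and a higher level per cell cannot be told apart.

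**Figure D1:**
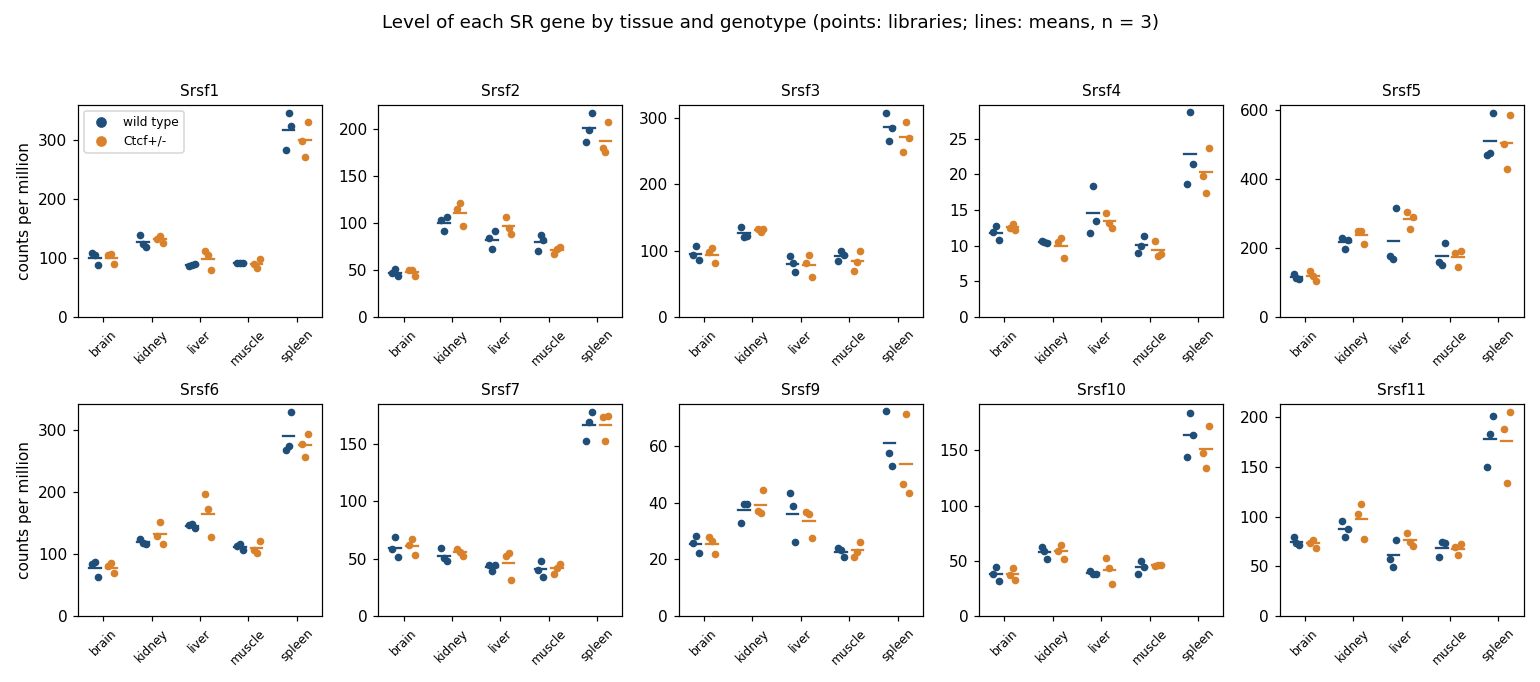
Level in CPM (vertical axis) of each SR gene in the 5 tissues, with 3 wild-type libraries (blue) and 3 Ctcf+/- libraries (orange) as points and their means as lines. Spleen stands above the other tissues in all 10 panels, while the blue and orange points of each tissue overlap.

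Srsf1 (ENSMUSG00000018379, chr11:88047373-88053755, plus strand) binds exonic enhancers, affects the choice of 5′ splice site and is a known oncoprotein. Its wild-type level, for replicates 1, 2 and 3, was 108.6, 104.5 and 87.8 CPM in brain, 91.6, 91.0 and 91.3 in muscle, 138.0, 123.9 and 118.3 in kidney, 85.9, 87.3 and 88.9 in liver, and 282.5, 345.8 and 323.3 in spleen. The Ctcf+/- libraries gave 105.2, 107.3 and 89.0 CPM in brain, 89.1, 83.6 and 97.3 in muscle, 132.5, 136.8 and 124.4 in kidney, 111.4, 104.5 and 79.9 in liver, and 297.7, 271.2 and 329.8 in spleen. Spleen was 1.30 above kidney on the log2 scale (adjusted p = 2.10e-07, edgeR), and kidney was 0.31 above brain (adjusted p = 0.0308), which did not pass with libraries scaled to total counts (0.21, adjusted p = 0.223). With TMM, brain and muscle, and muscle and liver, did not pass the test. With total counts muscle was below brain (-1.30, adjusted p = 2.27e-06, edgeR).

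Srsf2 (ENSMUSG00000034120, chr11:116849901-116853094, minus strand), also called SC35, is widely used to mark nuclear speckles. In wild type it was counted at 47.1, 50.9 and 43.7 CPM in brain, 70.2, 87.1 and 82.3 in muscle, 103.0, 91.9 and 106.6 in kidney, 83.7, 72.0 and 91.4 in liver, and 186.5, 199.6 and 217.5 in spleen. The Ctcf+/- libraries gave 49.9, 49.9 and 43.9 CPM in brain, 67.3, 72.9 and 75.0 in muscle, 115.2, 121.5 and 96.5 in kidney, 106.2, 94.8 and 88.5 in liver, and 180.0, 175.6 and 208.3 in spleen. Brain was the low tissue, 0.86 below muscle on the log2 scale (adjusted p = 3.79e-05, edgeR), but above it with libraries scaled to total counts (muscle over brain -0.41, adjusted p = 0.0422). With TMM, kidney, liver and muscle did not pass the test between neighbours.

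Srsf3 (ENSMUSG00000071172, chr17:29032673-29043366, plus strand) is the smallest SR protein and takes part in mRNA export. Wild-type libraries held 92.8, 106.3 and 85.0 CPM in brain, 83.7, 99.0 and 92.8 in muscle, 135.5, 119.7 and 122.6 in kidney, 91.2, 80.5 and 67.7 in liver, and 307.1, 265.4 and 284.5 in spleen. Ctcf+/- libraries held 97.3, 103.2 and 81.1 CPM in brain, 69.0, 83.2 and 99.0 in muscle, 131.8, 128.0 and 133.0 in kidney, 81.8, 93.5 and 60.2 in liver, and 248.6, 294.3 and 270.1 in spleen. The order in wild type was spleen, kidney, brain, muscle and liver, by mean CPM, and of these neighbours only brain and muscle did not pass the test. For that pair the fitted log2 difference of muscle over brain was 0.06, with muscle higher (adjusted p = 0.729, edgeR). With total counts brain was the higher (muscle over brain -1.21, adjusted p = 2.01e-06), and kidney over brain (0.29, adjusted p = 0.0794) and muscle over liver (0.19, adjusted p = 0.252) did not pass.

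Srsf4 (ENSMUSG00000028911, chr4:131873617-131901706, plus strand) has a long RS domain and was the least abundant member in CPM. Its wild-type values were 11.9, 12.7 and 10.8 CPM in brain, 8.90, 9.93 and 11.3 in muscle, 10.7, 10.5 and 10.3 in kidney, 11.8, 18.4 and 13.4 in liver, and 18.6, 28.7 and 21.4 in spleen. Its Ctcf+/- values were 12.4, 13.0 and 12.2 CPM in brain, 10.7, 8.47 and 8.76 in muscle, 10.5, 11 and 8.30 in kidney, 14.5, 13.2 and 12.5 in liver, and 19.8, 17.3 and 23.7 in spleen. Spleen exceeded liver by 0.66 on the log2 scale (adjusted p = 0.00530, edgeR), and no other neighbours in the order passed the test with TMM. The liver wild-type replicate 2 (18.4 CPM) came close to the lowest wild-type spleen library (18.6 CPM).

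Srsf5 (ENSMUSG00000021134, chr12:80945504-80950507, plus strand) is an SR protein linked to insulin-regulated splicing. The wild-type libraries gave 125.1, 113.6 and 110.5 CPM in brain, 160.2, 151.8 and 213.6 in muscle, 229.0, 198.0 and 224.0 in kidney, 177.8, 168.0 and 316.2 in liver, and 469.3, 474.6 and 590.5 in spleen. The Ctcf+/- libraries gave 132.9, 117.3 and 104.4 CPM in brain, 184.1, 145.1 and 190.4 in muscle, 249.4, 249.2 and 212.0 in kidney, 303.6, 254.9 and 289.6 in liver, and 500.3, 429.0 and 585.3 in spleen. Wild-type liver split into 2 libraries below all 3 Ctcf+/- libraries and replicate 3 above them. Brain was low, 0.70 below muscle on the log2 scale (adjusted p = 0.00908, edgeR), but above it with total counts (muscle over brain -0.58, adjusted p = 0.0603). With TMM, liver, kidney and muscle did not pass the test between neighbours.

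Srsf6 (ENSMUSG00000016921, chr2:162931528-162937121, plus strand) binds exonic enhancers and regulates, among others, exons of Mapt. In wild type its levels were 83.5, 86.9 and 63.9 CPM in brain, 112.7, 115.9 and 106.3 in muscle, 124.7, 118.9 and 117.0 in kidney, 146.9, 148.2 and 141.8 in liver, and 268.3, 275.3 and 329.3 in spleen. In Ctcf+/- they were 80.4, 85.1 and 69.0 CPM in brain, 106.5, 101.9 and 121.4 in muscle, 128.9, 151.3 and 117.0 in kidney, 196.8, 172.4 and 127.3 in liver, and 277.8, 257.4 and 294.8 in spleen. Liver was second to spleen, which exceeded it by 1.01 on the log2 scale (adjusted p = 1.58e-05, edgeR). Brain was 0.62 below muscle (adjusted p = 0.00111, edgeR), but above it with total counts (muscle over brain -0.65, adjusted p = 0.00238).

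Srsf7 (ENSMUSG00000024097, chr17:80200089-80207305, minus strand) carries a zinc knuckle beside its RNA-binding domain and, like Srsf3, acts in mRNA export. It was counted in wild type at 58.8, 69.0 and 51.2 CPM in brain, 39.8, 48.0 and 34.4 in muscle, 59.6, 50.3 and 48.1 in kidney, 44.1, 39.6 and 44.4 in liver, and 152.7, 169.1 and 177.2 in spleen. Ctcf+/- libraries stood at 62.3, 66.7 and 52.8 CPM in brain, 36.9, 42.0 and 45.5 in muscle, 58.2, 55.7 and 52.5 in kidney, 52.1, 54.8 and 31.0 in liver, and 173.6, 152.3 and 173.9 in spleen. Brain came second to spleen, 1.44 below it on the log2 scale (adjusted p = 7.39e-07, edgeR). With TMM, the 4 tissues other than spleen did not pass the test between neighbours.

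Srsf9 (ENSMUSG00000029538, chr5:115327177-115333080, plus strand) is a short SR protein that acts on exonic and intronic elements. Wild-type levels were 25.9, 28.2 and 22.4 CPM in brain, 24.2, 23.2 and 20.7 in muscle, 32.9, 39.6 and 39.7 in kidney, 43.6, 38.8 and 26.3 in liver, and 72.3, 57.7 and 53.0 in spleen. Ctcf+/- levels were 28.0, 26.5 and 22.1 CPM in brain, 21.0, 22.8 and 26.2 in muscle, 37.0, 36.3 and 44.6 in kidney, 36.9, 36.0 and 27.6 in liver, and 46.6, 71.3 and 43.4 in spleen. The step from kidney to spleen was 0.68 on the log2 scale (adjusted p = 0.00390, edgeR), and liver exceeded brain by 0.47 (adjusted p = 0.0350), while with total counts brain was the higher (liver over brain -0.66, adjusted p = 0.00120).

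Srsf10 (ENSMUSG00000028676, chr4:135855747-135869908, plus strand) is an unusual member that represses splicing when dephosphorylated, as in heat shock and mitosis. Its level in wild type was 38.2, 44.3 and 31.8 CPM in brain, 38.0, 50.1 and 44.9 in muscle, 62.5, 58.9 and 51.5 in kidney, 40.6, 37.9 and 37.7 in liver, and 144.1, 184.2 and 163.9 in spleen. In Ctcf+/- its level was 37.5, 43.6 and 32.3 CPM in brain, 45.3, 45.9 and 46.6 in muscle, 59.3, 64.3 and 51.9 in kidney, 53.0, 43.2 and 29.0 in liver, and 148.0, 134.1 and 172.1 in spleen. Spleen stood at 2.85 times the level of kidney, the next tissue, which was 1.49 lower on the log2 scale (adjusted p = 5.85e-07, edgeR). No other neighbours passed the test with TMM.

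Srsf11 (ENSMUSG00000055436, chr3:158010473-158036639, minus strand) interacts with the U2AF heterodimer at the 3′ splice site. Wild-type libraries stood at 79.5, 73.5 and 71.5 CPM in brain, 59.1, 74.3 and 73.2 in muscle, 95.2, 79.4 and 87.7 in kidney, 57.3, 49.0 and 76.4 in liver, and 149.5, 183.0 and 201.0 in spleen. Those of Ctcf+/- mice stood at 73.2, 76.8 and 68.9 CPM in brain, 69.2, 61.5 and 72.5 in muscle, 102.7, 113.1 and 77.5 in kidney, 83.9, 74.6 and 70.1 in liver, and 188.0, 133.8 and 205.2 in spleen. The lowest spleen values were those of wild-type replicate 1 and Ctcf+/- replicate 2. Spleen was 1.01 above kidney on the log2 scale (adjusted p = 6.77e-05, edgeR), and no other neighbours passed the test with TMM.

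Across the 5 wild-type tissues, all 10 members passed the F-test of any difference (edgeR, Benjamini-Hochberg over all genes), where 98.0% of the 22933 genes tested also passed. Between pairs of tissues, 64 of 100 tests of a member passed. All 40 tests of spleen against another tissue passed, each with spleen higher by 0.66 to 2.10 on the log2 scale. The median member difference was 1.58 over brain, where 37.0% of all genes were called higher in spleen. It was 1.19 over kidney (36.3% of all genes), 1.43 over liver (37.7%) and 1.34 over muscle (38.1%). The medians over all genes were -0.13, -0.04, 0.04 and 0.00. Of the 60 tests that did not involve spleen, 24 passed. By pair these were 7 for kidney over brain (71.4% of all genes called), 5 for liver over brain (73.2%) and 4 for muscle over brain (72.3%). They were 4 for liver over kidney (54.1%), 2 for muscle over kidney (64.4%) and 2 for muscle over liver (64.2%).

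**Figure D2:**
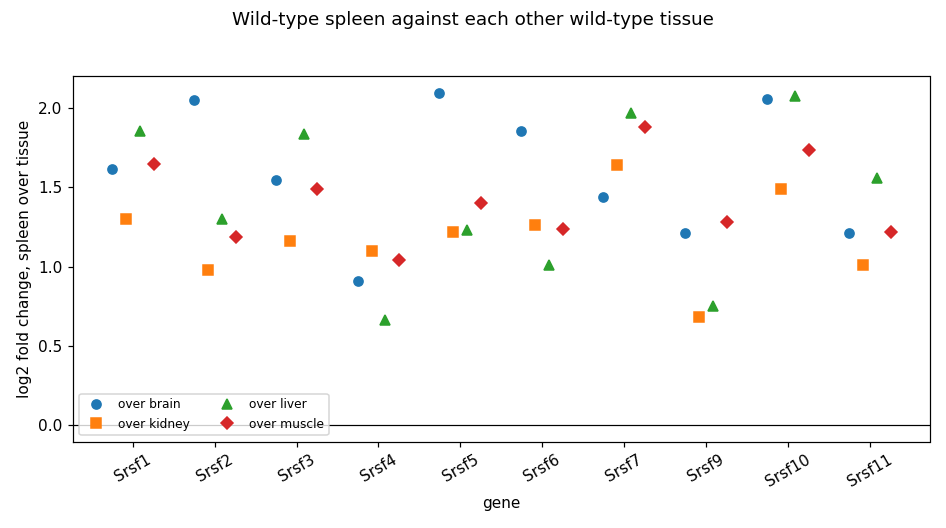
Log2 fold change of wild-type spleen over each other wild-type tissue (vertical axis) for the 10 SR genes, 1 marker per tissue. All 40 markers lie above 0, from 0.66 to 2.10.

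The order below spleen depended on how tissues were scaled: 16 of the 60 member differences without spleen changed sign with total counts, and 0 of the 40 with spleen. With libraries scaled to total counts, the median over all genes moved to 1.20 for spleen over liver and 1.32 for spleen over muscle, and the member medians to 2.59 and 2.68. All 10 members were called higher in spleen than in each other tissue, as with TMM. Liver and muscle were below kidney for 10 of 10 members with total counts, while with TMM 4 and 2 members were called lower there. Liver over brain was called higher for 4 members and lower for 1 with TMM, and higher for 0 and lower for 7 with total counts. Muscle over brain was called higher for 3 and lower for 1 with TMM, and higher for 0 and lower for 9 with total counts. The medians over all genes with total counts were -1.24 for liver over brain and -1.45 for muscle over brain (members -0.99 and -1.25). Over kidney they were -1.07 for liver and -1.38 for muscle (members -1.31 and -1.40). Kidney over brain was called higher for 7 members with TMM and for 5 with total counts.

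The make-up of the family was compared per kb of counted exon, as a share of the sum of the 10 genes in each library. Srsf5 had the largest share in every wild-type tissue by mean: 18.7% ± 1.60 in brain, 23.9% ± 0.968 in kidney, 24.2% ± 1.77 in spleen, 24.8% ± 4.11 in muscle and 27.0% ± 7.56 in liver (SD, n = 3). The liver mean rests on replicate 3 (35.7%), since the other liver libraries (22.5% and 22.7%) were below the means of kidney, spleen and muscle. Srsf7 made up 16.7% ± 1.10 in brain, 13.8% ± 0.421 in spleen, and 10.1% ± 0.844, 9.30% ± 0.506 and 10.1% ± 1.74 in kidney, liver and muscle. Its lowest brain library (16.0%) was above the highest library of kidney, liver and muscle (11.6%). Srsf2 was lower in brain (10.2% ± 0.359) than in kidney (14.9% ± 0.832), liver (13.8% ± 0.603) and muscle (15.2% ± 1.04). Srsf6 was highest in liver (15.1% ± 1.68) and Srsf10 in spleen (4.43% ± 0.531). Srsf4 had the smallest share in every wild-type tissue, 1.22% to 2.12%. These shares are a description with no test. The lengths include bases outside coding transcripts, a part that differs between members, and in Srsf4 and Srsf2 many bases shared with other genes.

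**Figure D3:**
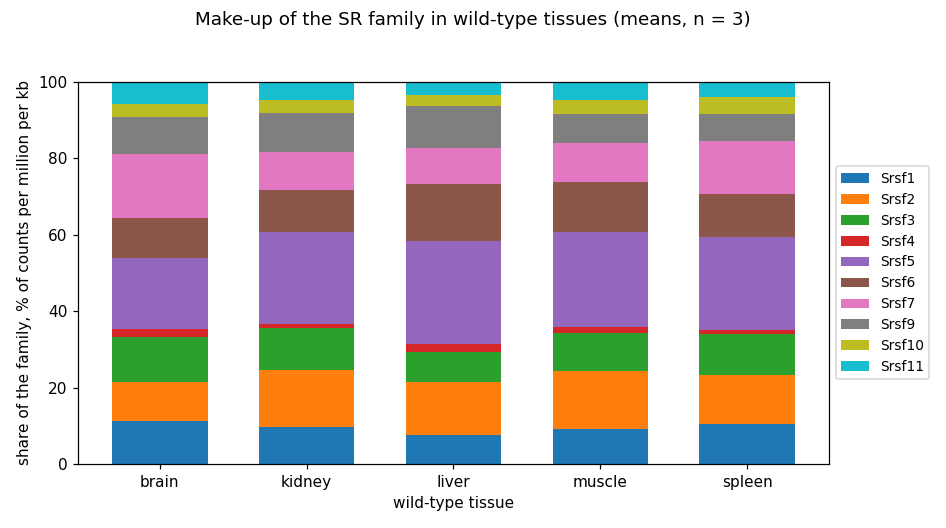
Mean share of each SR gene in the family sum of CPM per kb (vertical axis, percent) in the 5 wild-type tissues. The Srsf7 segment is widest in brain (16.7%), and the Srsf5 segment in liver (27.0%) includes replicate 3 at 35.7%, with the others at 22.5% and 22.7%.

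Over the 15 wild-type libraries, the members' log2 levels correlated with each other at a median Pearson r of 0.817 over 45 pairs, from 0.653 (Srsf9 and Srsf11) to 0.981 (Srsf1 and Srsf10). The points share tissue, depth and scaling, so these are descriptions. The genes outside the family whose pattern was most like the family mean, among 15967 genes, were Clcf1 (r = 0.994), Prpf38b (0.992), Atp10d (0.991), Ciita (0.990) and Clk1 (0.990). Clcf1 encodes a cytokine and Ciita the activator of MHC class II genes, Prpf38b a splicing factor and Clk1 an SR kinase. Ciita stood at 115.6 CPM in wild-type spleen and 0.425 to 2.86 CPM elsewhere.

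The comparison of genotypes asks whether loss of 1 Ctcf copy changes SR gene levels. No member passed the test in any tissue: 0 of 50 tests of a member in a tissue were called (edgeR, adjusted p under 0.05), and 0 of 50 had an unadjusted p under 0.05. The share of all genes called was 0.0157% for brain, 0.0211% for kidney, 0.0193% for liver, 0.0249% for muscle and 0.242% for spleen. At the unadjusted level it was 2.96%, 6.44%, 4.56%, 6.45% and 3.52%. The groups of 3 overlapped in all 50, where 7.83% (brain), 11.4% (kidney), 8.99% (liver), 12.2% (muscle) and 6.64% (spleen) of genes had groups that did not overlap. DESeq2 also called 0 members in each tissue.

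The means of the Ctcf+/- group were 88.2% to 128.1% of wild type over the 50 comparisons, and 48 were within 25% of it. Brain was the tightest tissue: member log2 fold changes of Ctcf+/- over wild type ran from -0.04 to 0.09, with a median of 0.00. Kidney ran from -0.08 to 0.16 (median 0.07, 9 of 10 members higher) and liver from -0.12 to 0.36 (median 0.14, 7 higher). Muscle ran from -0.16 to 0.05 (median -0.02, 7 lower) and spleen from -0.18 to 0.00 (median -0.08, 9 lower). The medians over all genes were 0.00 for brain, kidney and spleen, and -0.01 for liver and muscle. Of the 50 intervals at 95%, 46 excluded a change of 1.5 times in either direction, and the 4 that reached it were 2 in liver and 2 in spleen. The widest was that of Srsf5 in liver, whose upper end was 1.88 times wild type.

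**Figure D4:**
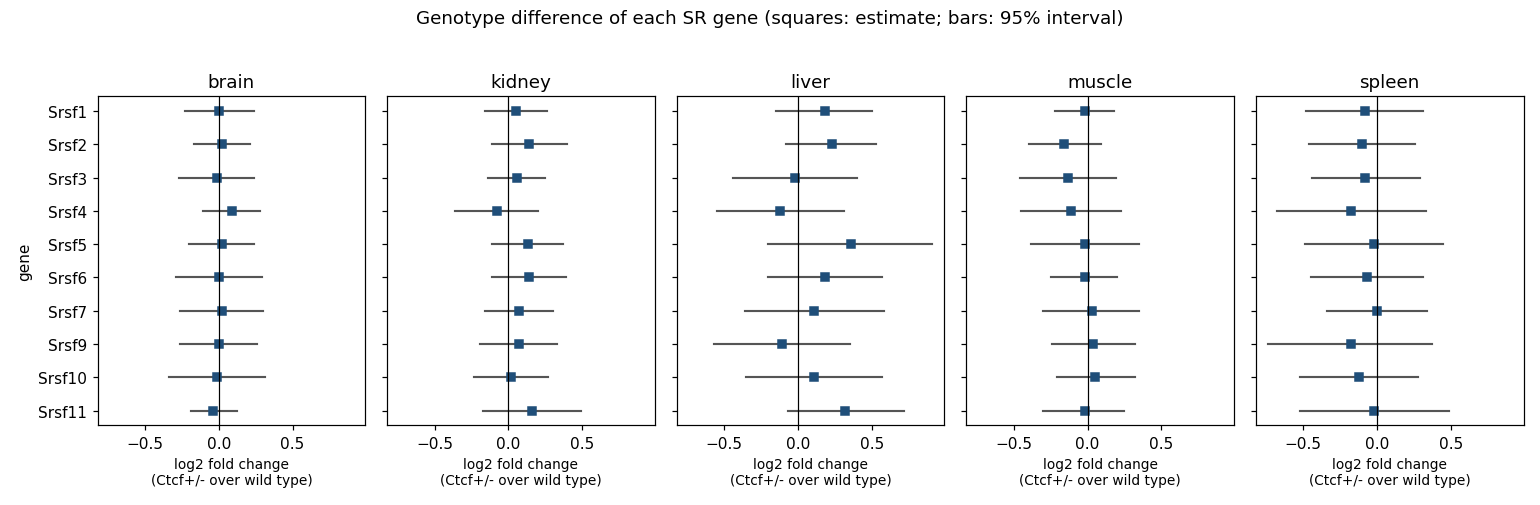
Log2 fold change of Ctcf+/- over wild type (horizontal axis) for each SR gene in the 5 tissues, as squares with 95% intervals. All 50 intervals include 0, and the widest is that of Srsf5 in liver.

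In the fit over all 5 tissues, 0 of 10 members were called for a genotype effect shared by tissues, where 0.194% of 24262 genes were called. The shared log2 fold changes ran from -0.06 (Srsf4) to 0.11 (Srsf5), with a median of 0.04 against 0.01 over all genes. None of the 10 was called for a genotype effect that differed between tissues (adjusted p = 1 for each, edgeR), where 0.758% of genes were called. At an unadjusted p under 0.05 the count was 0 in both tests, against 5.91% and 6.66% of all genes. This fit treats the 5 libraries of a mouse as independent. With mouse as a random effect, and with 1 mean per mouse, 0 members were called as well. Both take the replicate number as the mouse, which the labels do not state.

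Some libraries stood apart within liver and spleen, as 4 members chosen after their values were seen show. In wild-type liver, replicate 3 held 316.2 CPM of Srsf5 and 76.4 CPM of Srsf11, above the other 2 (177.8 and 168.0, 57.3 and 49.0). The same library held 26.3 CPM of Srsf9 and 67.7 CPM of Srsf3, below the other 2 (43.6 and 38.8, 91.2 and 80.5). The ratio of Srsf5 to Srsf9 was 12.02 in that library and 4.08 and 4.33 in the other wild-type livers. In Ctcf+/- livers it was 8.23, 7.08 and 10.49 for replicates 1, 2 and 3. Ctcf+/- replicate 3 also held the least Srsf9 (27.6 CPM) and Srsf3 (60.2 CPM) of its group. Its Srsf5 (289.6 CPM) lay between the other 2 libraries and its Srsf11 (70.1 CPM) below them. Without wild-type replicate 3, Srsf5 in liver had a log2 fold change of 0.71 (unadjusted p = 9.82e-04, adjusted p = 0.220, edgeR), and 2 members were under an unadjusted p of 0.05. Without Ctcf+/- replicate 3, 4 members were. No member was called in either case, and of all genes 2 and 17 were called, against 3 with all libraries. With all libraries, 4.56% of genes in liver had an unadjusted p under 0.05, a share not counted for these 2 runs.

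In spleen, Srsf9 was highest in wild-type replicate 1 (72.3 CPM) and Ctcf+/- replicate 2 (71.3 CPM), and Srsf11 was lowest in the same libraries (149.5 and 133.8 CPM). These libraries also had the highest sums of erythroid markers, 57303 and 48890 CPM, against 9227 to 37372 CPM in the other 4. They were highest too in pancreas acinar markers, 192.1 and 1502 CPM against 16.6 to 116.9 CPM. The 10 most counted genes took 11.37% and 10.56% of their counts, against 5.79% to 9.05% in the other 4. The part of erythroid cells, pancreas tissue or library make-up in the Srsf9 and Srsf11 values was not tested. Over the 30 libraries, after removing group means, Srsf9 and Srsf11 correlated at r = -0.629, the lowest of the 45 pairs, and Srsf1 and Srsf10 at 0.856, the highest. The ratio of Srsf1 to Srsf10 in spleen ranged from 1.88 to 2.02 over 6 libraries, while that of Srsf5 to Srsf9 ranged from 6.02 to 13.49.

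**Figure D5:**
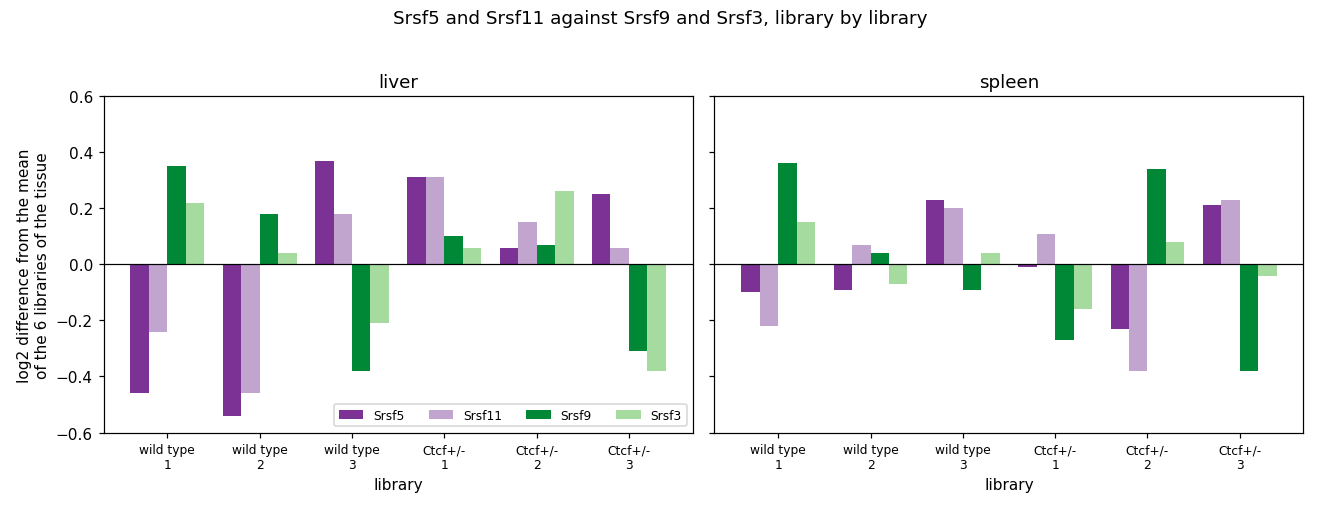
Log2 difference of each library from the mean of the 6 libraries of its tissue (vertical axis) for Srsf5, Srsf11, Srsf9 and Srsf3 in liver (left) and spleen (right). In wild-type liver 3 Srsf5 and Srsf11 are up (0.37 and 0.18) with Srsf9 and Srsf3 down (-0.38 and -0.21). Ctcf+/- liver 3 has the same signs (0.25, 0.06, -0.31 and -0.38), and in Ctcf+/- spleen 2 the signs are turned.

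Genes that act with SR proteins were described by 3 lists of 40 genes in all. In wild type, 6 of 10 genes for SR kinases and nuclear import were highest in spleen, 18 of 23 other RS-domain genes, and 6 of 7 genes for partners at the splice site and in export, against 28.4% of all genes tested. The median ratio of spleen to the highest other tissue was 1.83, 1.64 and 1.56 in these lists, against 2.15 for the 10 SR genes. Clk1 stood at 282.9 ± 38.5 CPM in spleen and 52.3 to 84.9 CPM elsewhere. Srpk3, a muscle kinase, was at 65.5 ± 2.43 CPM in muscle and 62.0 ± 9.33 CPM in spleen but 0.414 to 3.64 CPM in the other tissues. Srpk2 was highest in brain, at 155.0 ± 16.5 CPM against 20.5 to 44.9 CPM elsewhere. Among RS-domain genes, Srsf12 was at 11.7 ± 1.23 CPM in brain and at most 0.494 CPM in the other tissues, while Pnisr (198.2 ± 54.7 CPM) and Tra2a (126.3 ± 7.63 CPM) were highest in spleen. Of the partners, Alyref, an export adaptor, reached 66.8 ± 21.3 CPM in spleen from 14.3 ± 1.24 CPM in brain. Nxt1, an export cofactor, reached 21.3 ± 6.93 CPM from 5.07 ± 0.470 CPM, and Snrnp70, of the U1 particle, 444.1 ± 49.9 CPM from 110.5 ± 12.7 CPM in liver.

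Between genotypes, 0 of 195 tests of these genes were called. At an unadjusted p under 0.05, 3 were higher and 1 lower in Ctcf+/-, against 2.96% to 6.45% of all genes by tissue. The 3 higher were in liver (4.56% of all genes under that level), and Clk1 and Luc7l3 among them are named after their values were seen. Clk4 was at 29.5, 31.1 and 37.9 CPM in wild type and 49.3, 42.3 and 49.0 CPM in Ctcf+/- (log2 fold change 0.51, SE 0.14, adjusted p = 0.675, edgeR). Clk1 was at 55.7, 59.1 and 74.0 CPM in wild type and 88.7, 82.0 and 97.7 CPM in Ctcf+/- (0.51, SE 0.14, adjusted p = 0.692, edgeR). Both kinases phosphorylate RS domains in the nucleus. Luc7l3, a U1-associated RS-domain protein, was at 59.0, 48.0 and 54.7 CPM in wild type and 86.8, 73.1 and 64.4 CPM in Ctcf+/- (0.47, SE 0.14, adjusted p = 0.797, edgeR). The groups of these 3 genes did not overlap, as was so for 8.99% of all genes in liver, and none passed the adjusted test. In the other tissues the smallest unadjusted p belonged to Luc7l2 in brain (0.0917, log2 fold change -0.15), Snrnp70 in kidney (0.107, 0.15), Scaf1 in muscle (0.0351, -0.21) and Srpk3 in spleen (0.191, -0.24), by edgeR.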

How the data were processed

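Fragments had been aligned and counted by the authors. The deposited files hold raw counts per gene, made with featureCounts 1.5.0-p3 on exons of Ensembl release 86 (GRCm38) as fragments with no strand option, per the file headers. FastQC, STAR and DESeq2 are named in the submitters' processing notes. RNA was total RNA taken with TRIzol and treated with DNase, per the labels' protocols. Symbols were found for 48349 of the 48709 gene IDs. Libraries were grouped by the labelled tissue and genotype. Genes were filtered with filterByExpr, scaled with TMM and tested with the quasi-likelihood F-test of edgeR 4.0.16 (limma 3.58.1, R 4.3.3), with Benjamini-Hochberg adjustment over all genes tested and a threshold of 0.05. To set tissues side by side, each tissue's libraries were also scaled by the geometric mean of TMM factors from the 30 libraries. All levels in CPM given here are on that scale. DESeq2 1.42.0 was an alternative. Scripts were tested on simulated data.

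The members and gene lists were chosen with earlier results of these data known. The text names all 10 members, over the pathway lists the gene of smallest p in each tissue, for each list the 3 genes of widest tissue range at a mean of 1 CPM or more, and the 5 genes most like the family mean. Where replicate numbers are shared between genotypes, the labels do not say that they pair mice. Deviations of same-numbered libraries correlated at 0.207, 0.383 and 0.537 in brain and 0.209, 0.190 and 0.212 in kidney. They correlated at 0.051, 0.118 and 0.277 in liver, 0.083, 0.183 and 0.271 in muscle, and -0.472, -0.227 and 0.475 in spleen. Every member had at least 450 counts per library. The sources of the spread between libraries of a group were not tested.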

Additional observations from a re-analysis of the deposited data

How the results depend on the processing

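Of 140 recomputed counts of members called, 140 stayed at 0 where 0 was reported, or within 1.5 times of the reported count. This rule does not track direction, which turned for some tissue pairs with total counts. By genotype, 0 members were called under any alternative run in any tissue. Alternatives were DESeq2, its size factors in edgeR, total counts, no filter, 10 counts in every library, all 30 libraries in the fit, a replicate block, and each library left out. With the replicate block, 0 members were called in each tissue, with a median log2 fold change of 0.01 in brain and 0.08 in kidney. In these tissues deviations of same-numbered libraries correlated at 0.190 to 0.537, which does not show that the numbers pair mice. The block changed no genotype call of a member. Ctcf in kidney passed with the block (-0.71, adjusted p = 0.0440, edgeR), with no filter (0.0119), without Ctcf+/- replicate 3 (-0.63, 0.0364) and with DESeq2 (1.04e-06). It passed in muscle with DESeq2 (-0.58, 0.00720) and in spleen with all 30 libraries in the fit (-0.63, 0.0219). In brain it did not pass with all 30 libraries (-0.62, adjusted p = 1) or when any 1 library was left out (adjusted p = 0.100 to 0.292). Tests between pairs of wild-type tissues gave 59 to 84 calls in 100, with 84 for total counts and 65 with the block. At an unadjusted p under 0.05, leaving out 1 library gave up to 4 members in liver, 2 in kidney, 1 in muscle and 1 in spleen, and 0 called. With all libraries, 4.56%, 6.44%, 6.45% and 3.52% of all genes in these tissues were under that level. The share was not counted for the runs with 1 library left out. In the runs that gave these counts, 17, 56, 1 and 29 genes of all were called, against 3, 4, 4 and 45 with all libraries. Srsf4 in spleen had a log2 fold change of -0.18, and leaving out 1 library gave -0.31 to 0.00, with 0.00 without wild-type replicate 2. The cause was not tested. Intervals in liver and spleen were the widest, and 2 in each reached a change of 1.5 times. An interval that excludes 1.5 times does not show that a change of that size would have been called. Ctcf itself was not called in kidney (log2 fold change -0.70, adjusted p = 0.107) or muscle (-0.57, adjusted p = 0.250) in the main edgeR fit.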
